A study of Homo sapiens with 16 samples.

Results

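Gene levels in untreated cells were compared between BxPC3 and PANC-1, 2 established human lines from pancreatic ductal adenocarcinoma (PDAC). The comparison took in the 8 control libraries of the 16 in the series, 4 of untreated BxPC3 and 4 of untreated PANC-1. The remaining 8 libraries, 4 of each line with gemcitabine, served only to show the same genes in other libraries of the same lines. The labels name the line and, for the treated libraries, the drug. They give no genotype, dose or time, and do not say whether the 4 libraries of a group came from separate cultures, so a p-value here measures the spread between libraries, which may be technical. Each line is a single established culture, so every value is a difference between 2 lines and not between kinds of tumour. The genes of the 2 deposited tables were joined by identifier, and all 58735 were present in both. Of these, 13270 had a level of at least 1 FPKM (fragments scaled by gene length and library size) in at least 4 of the 8 control libraries and were tested.

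Pancreatic ductal adenocarcinoma arises from an epithelium whose cells are held together by E-cadherin junctions, desmosomes and tight junctions and are filled with keratin filaments. Carcinoma cells can lose these features and gain vimentin, matrix proteins and motility in the epithelial to mesenchymal transition, a programme run by the SNAI, TWIST and ZEB repressors and held back by the miR-200 family. BxPC3 is known as an epithelial line and PANC-1 as a line with mesenchymal features, and both are standard models for gemcitabine, a cytidine analogue that cells must import and phosphorylate.

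Depth was 28074125 to 37777222 reads in listed genes per BxPC3 control library and 23007302 to 24913994 per PANC-1 control library. The first principal component of the 8 libraries held 98.3% of the variance and separated the lines, and the second, with 0.564%, set replicate 2 of BxPC3 apart from the other 7 libraries. Mitochondrial genes took 3.34% to 3.40% of reads in BxPC3 and 1.66% to 1.75% in PANC-1. Of the 10 duct and duct carcinoma markers, 8 passed the filter on low levels. KRT8, KRT18, KRT19 and EPCAM were present in both lines, while CFTR had 0 reads in PANC-1. The islet markers summed to at most 0.118 FPKM in any control library and the endothelial markers to at most 1.61 FPKM, and no gene of either list passed the filter. The 8 acinar markers summed to 2.83 to 3.33 FPKM in BxPC3 and 1.49 to 2.32 in PANC-1, with 2 tested, 1 higher in each line, and the regulator PTF1A at 0 reads in both. The 6 leukocyte markers summed to 7.18 to 8.60 FPKM in BxPC3 and 0.989 to 1.33 in PANC-1. Most of this was CD14, a lipopolysaccharide receptor and the 1 member tested, which was higher in BxPC3 by 1.95, while the pan-leukocyte PTPRC had 7 reads in BxPC3 and 5 in PANC-1. The 7 fibroblast markers summed to 8.64 to 9.89 FPKM in BxPC3 and 12.3 to 13.4 in PANC-1. Of the 3 tested, COL3A1 and ACTA2 were higher in BxPC3 by 2.00 and 1.23, and COL1A1 was higher in PANC-1 with a log2 difference of -2.15.

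The 2 tables were scaled separately before deposit, and the line of a library and its table cannot be told apart. On the deposited scale the median difference of all tested genes was -0.22 (log2(FPKM + 1), BxPC3 minus PANC-1), and after median-ratio scaling over the 8 control libraries together it was 0.04. Joint scaling raised BxPC3 against PANC-1 by 0.29 on the log2 scale, a factor of 1.22. Differences below therefore stand against that median, and counts of genes in lists use a size of at least 1 on the log2 scale.

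Most genes differed between the lines. With limma on log2(FPKM + 1) and Benjamini-Hochberg adjustment at 0.05, 11923 of 13270 genes differed, which is 89.8%, and for 11501 of the 13270 (86.7%) the 4 libraries of one line did not overlap those of the other. Of the genes called, 4861 were higher in BxPC3 (36.6% of those tested) and 7062 in PANC-1 (53.2%). With joint scaling the split was 6101 against 5735, so the share higher in BxPC3 went from 40.8% to 51.5%, and 133 genes changed direction. With a difference of at least 1 as well, 5002 genes were called (37.7%), 2234 higher in BxPC3 (16.8%) and 2768 higher in PANC-1 (20.9%), and joint scaling turned this to 2787 and 2022. The background shares against which the lists below are read are thus 16.8% and 20.9%. A gene that passed the filter through the libraries of 1 line alone had to be higher there. This holds for members of the lists below as well, whether or not their number is given. Of the 2234 genes, 1005 had no PANC-1 library at 1 FPKM, and of the 2768, 993 had no BxPC3 library at that level. At the far end, 453 genes were higher in BxPC3 by at least 3 and 211 were higher in PANC-1 by as much, while at a size of 5 the counts were 112 and 29. Among long non-coding and antisense genes, 45.5% of 809 tested passed the size of 1, against 37.4% of the 11661 protein-coding genes tested.

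**Figure D1:**
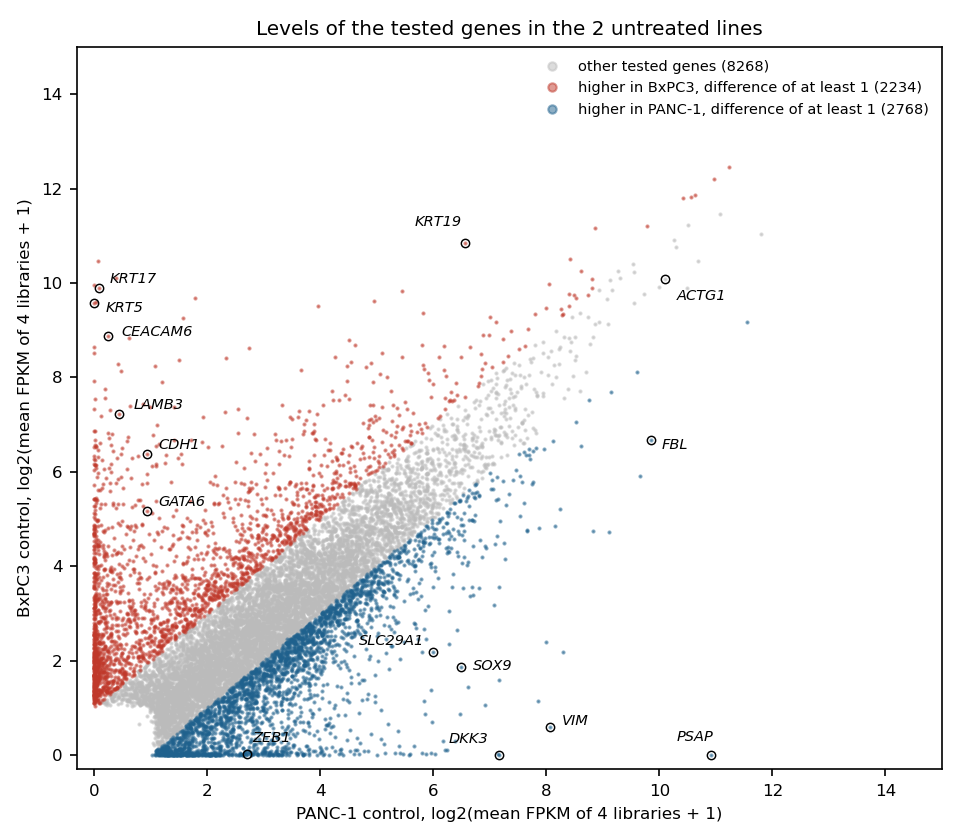
Mean level of each of the 13270 tested genes in untreated PANC-1 (horizontal axis) and untreated BxPC3 (vertical axis), as log2 of the mean FPKM of 4 libraries plus 1. The 2234 genes higher in BxPC3 by at least 1 (red) and the 2768 higher in PANC-1 (blue) lie off the diagonal, with KRT17 and KRT5 at one extreme and PSAP and VIM at the other.

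The genes with the largest difference in favour of BxPC3 included epithelial surface and secreted products and keratins. SLPI, a secreted inhibitor of leukocyte proteases, averaged 992 ± 109 FPKM (SD, n = 4) in BxPC3 and had no read in PANC-1, which makes it at least 19444-fold higher against a floor of 3 reads over the group. AQP3, a channel for water and glycerol, averaged 1106 ± 21.1 FPKM (SD, n = 4) against 0.307 ± 0.087. Others among the 15 genes with the largest difference were the keratins KRT5, KRT7, KRT13 and KRT17, the carcinoembryonic antigens CEACAM5 and CEACAM6, S100A9, S100P, the protease inhibitor PI3, the siderophore binder LCN2, the uroplakin UPK3B and the matrix protein TINAGL1. Their log2 differences ran from 7.68 for TINAGL1 and UPK3B to 9.82 for KRT17.

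In favour of PANC-1, the largest difference was that of PSAP, the precursor of the lysosomal saposins. PSAP measured 1877, 1934, 1925 and 1939 FPKM in PANC-1 and was listed in BxPC3 with a single read over the 4 libraries (limma log2 difference -10.90 ± 0.03 (SE), adjusted p = 2.6e-18). VIM, the intermediate filament of mesenchymal cells, followed with 255, 259, 272 and 285 FPKM in PANC-1 and 0.561, 0.542, 0.399 and 0.498 FPKM in BxPC3. DKK3, a secreted protein related to Wnt inhibitors, had no read in BxPC3 and averaged 143 ± 3.19 FPKM (SD, n = 4) in PANC-1, at least 31917-fold higher. MMP2, a gelatinase, averaged 141 ± 7.57 FPKM (SD, n = 4) in PANC-1 against 0.0182 ± 0.0135 in BxPC3. The remaining 11 were the connective tissue growth factor CTGF, the adhesion molecule L1CAM, the apolipoprotein APOE, the muscle and neuron elongation factor EEF1A2, EPDR1, the Notch ligand DLL3, the chemokine CCL2, the phosphatase inhibitor PPP1R14A, the tumour antigen PRAME, the scaffold AKAP12 and the tetraspanin CD81. Their log2 differences ran from -6.70 for CTGF to -5.76 for CD81.

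Genes of epithelial cell adhesion were higher in BxPC3 almost throughout. Of 13 genes in this list, all passed the filter, and 12 were higher in BxPC3 by at least 1 and 0 in PANC-1. The 12 include BST2, the tether of viruses that is described below among interferon-stimulated genes. The median difference was 5.44 beside -0.22 for all tested genes. Of these 13, 8 had no PANC-1 library at 1 FPKM and could only be higher in BxPC3. CDH1, which encodes E-cadherin, measured 85.1, 76.7, 84.9 and 83.3 FPKM in BxPC3 and 0.928, 0.952, 0.977 and 0.828 FPKM in PANC-1. The libraries did not overlap, as was so for 86.7% of all tested genes, and the fold was 89.5 (limma log2 difference 5.44 ± 0.04 (SE), adjusted p = 1.5e-15). P-cadherin, CDH3, averaged 113 ± 1.9 FPKM (SD, n = 4) against 0.18 ± 0.0319. EPCAM, the pan-epithelial adhesion molecule, differed less, with 53.1 ± 4.58 FPKM (SD, n = 4) against 17.5 ± 1.2, and PANC-1 thus retained a clear level of it. The integrin chain ITGB4, which anchors cells at hemidesmosomes, was 9.58-fold higher in BxPC3.

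Among desmosome genes, 8 of the 11 tested were higher in BxPC3 by at least 1 and 0 in PANC-1. DSG3, a desmosomal cadherin of stratified epithelium, had 11.5, 10.3, 11.4 and 10.7 FPKM in BxPC3 and no read in PANC-1. DSP, the plakin that ties desmosomes to keratin, averaged 36.4 ± 2.99 FPKM (SD, n = 4) against 4.25 ± 0.153. DSC2 did not pass the test, at 1.23 ± 0.0613 FPKM (SD, n = 4) against 1.18 ± 0.065. Tight junction genes were divided, with 11 of 21 tested higher in BxPC3 by at least 1 and 4 higher in PANC-1. CLDN1 averaged 240 ± 1.89 FPKM (SD, n = 4) in BxPC3 and 21.2 ± 0.61 in PANC-1, and the polarity gene CRB3 averaged 18.3 ± 1.08 against 0.157 ± 0.0756. In the other direction, the claudin CLDN3 averaged 15.9 ± 1.27 FPKM (SD, n = 4) in PANC-1 and 2.91 ± 0.287 in BxPC3. OCLN, which encodes occludin, averaged 12.6 ± 0.613 FPKM (SD, n = 4) in PANC-1 and 2.37 ± 0.113 in BxPC3. The other 2 higher in PANC-1 were CLDN12 and CLDN15.

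Of 17 tested regulators of epithelial identity, 16 were higher in BxPC3 by at least 1 and 0 in PANC-1. The filter set the direction of 12 of the 17, which had no PANC-1 library at 1 FPKM. ESRP2, a splicing factor of epithelial cells, averaged 13 ± 0.63 FPKM (SD, n = 4) against 2.33 ± 0.0958, while its relative ESRP1 averaged 20.4 ± 0.628 against 0.0478 ± 0.02. The grainyhead factor GRHL2 measured 16.2, 14.1, 16.7 and 15.6 FPKM in BxPC3 and had 7 reads in all 4 PANC-1 libraries. TP63, the master factor of basal epithelium, averaged 28 ± 1.64 FPKM (SD, n = 4) in BxPC3 against 0.0462 ± 0.00856. The small GTPase RAB25 averaged 86.9 ± 8.65 FPKM (SD, n = 4) against 0.0418 ± 0.0121. Only GRHL3 of those tested went the other way, with 0.86 ± 0.24 FPKM (SD, n = 4) in BxPC3 and 1.45 ± 0.207 in PANC-1 (limma log2 difference -0.40 ± 0.09 (SE), adjusted p = 0.0014).

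**Figure D2:**
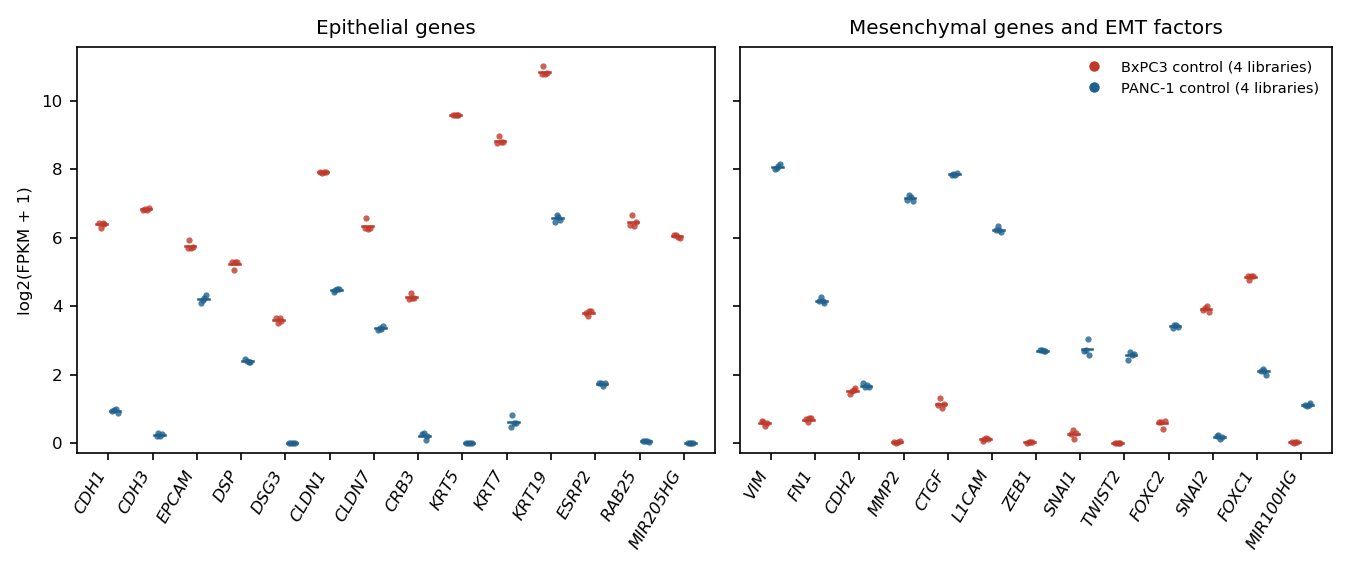
Levels of epithelial genes (left) and of mesenchymal genes and transition factors (right) in each control library, as log2(FPKM + 1), with BxPC3 in red, PANC-1 in blue and a bar at the mean of 4 libraries. The left panel has BxPC3 above PANC-1 for all 14 genes, and in the right panel SNAI2 and FOXC1 stand above in BxPC3 while VIM, MMP2 and CTGF stand above in PANC-1.

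The repressors ZEB1, ZEB2, SNAI1 and SNAI2 bind the E-box CACCTG, so the 250 bases before the start of junction and regulator genes were read from the RefSeq promoter table (GRCh38.p14) and searched on both strands, the other strand reading CAGGTG. Of the 25 such genes that were higher in BxPC3 by at least 1 and had an entry, 8 held this motif, beside 17.5% of all 35116 promoters in the table. The 25 include BST2 of the adhesion list, which is no junction gene and lacked the motif. Of the 11 genes of the same lists that were tested and not higher in BxPC3 by at least 1, 5 held it, OCLN, higher in PANC-1, among them. The adhesion, desmosome, tight junction and regulator lists held 12, 8, 11 and 16 genes higher in BxPC3 by at least 1. The 25 searched were thus only a part of them. Many members had no entry, CDH1 and EPCAM among them. The promoters of CRB3 (chr19:6464021-6464270, plus strand, 5 motifs), DSP (chr6:7541421-7541670, plus strand, 2 motifs) and RAB25 (chr1:156060910-156061159, plus strand, 1 motif) are shown because these genes differed between the lines and hold the motif, which is in capitals. A match in these letters is no measure of binding.
CRB3: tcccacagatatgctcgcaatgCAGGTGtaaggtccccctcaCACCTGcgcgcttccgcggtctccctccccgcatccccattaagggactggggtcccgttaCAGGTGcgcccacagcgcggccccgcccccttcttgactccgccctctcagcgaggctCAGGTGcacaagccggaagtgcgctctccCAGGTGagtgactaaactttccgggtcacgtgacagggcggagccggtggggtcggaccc
DSP: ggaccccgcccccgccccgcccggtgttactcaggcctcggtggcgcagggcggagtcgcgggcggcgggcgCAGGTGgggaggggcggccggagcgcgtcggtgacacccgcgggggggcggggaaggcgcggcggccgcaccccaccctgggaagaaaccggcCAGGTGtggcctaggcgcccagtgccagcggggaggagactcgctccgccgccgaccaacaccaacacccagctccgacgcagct
RAB25: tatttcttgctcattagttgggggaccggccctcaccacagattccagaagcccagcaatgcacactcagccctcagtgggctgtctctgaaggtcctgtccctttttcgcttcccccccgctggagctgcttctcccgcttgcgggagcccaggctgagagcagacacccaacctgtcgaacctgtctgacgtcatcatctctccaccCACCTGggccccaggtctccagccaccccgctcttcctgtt

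The repressors themselves were divided between the lines. Of 12 transition factors, 6 passed the filter, 4 higher in PANC-1 by at least 1 and 2 higher in BxPC3. All 4 had no BxPC3 library at 1 FPKM, and 1 of the 2 had no PANC-1 library at that level. The filter thus set their direction, and the levels are given as a description. ZEB1 measured 5.51, 5.59, 5.42 and 5.49 FPKM in PANC-1 and 0, 0.0267, 0.0248 and 0.0279 FPKM in BxPC3, a 277-fold difference (limma log2 difference -2.67 ± 0.04 (SE), adjusted p = 8.7e-14). TWIST2 had no read in BxPC3 and averaged 4.93 ± 0.369 FPKM (SD, n = 4) in PANC-1. SNAI1 averaged 5.76 ± 0.981 FPKM (SD, n = 4) in PANC-1 and 0.208 ± 0.0892 in BxPC3, and the forkhead factor FOXC2 averaged 9.64 ± 0.335 against 0.492 ± 0.118. SNAI2, which encodes SLUG, went the other way with 13.8, 14.3, 15 and 13.2 FPKM in BxPC3 and 0.162, 0.165, 0.0752 and 0.12 FPKM in PANC-1. FOXC1 was likewise higher in BxPC3, at 27.8 ± 1.19 FPKM (SD, n = 4) against 3.26 ± 0.208. ZEB2, SNAI3, TWIST1, PRRX1, TCF4 and GSC stayed below 1 FPKM in all 8 libraries.

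Mesenchymal structural genes were higher in PANC-1 more often than not. Of 20 tested in a list of 30, 10 were higher in PANC-1 by at least 1 and 1 in BxPC3. The median difference of -1.06 was -0.77 with joint scaling. The filter set the direction of 7 of the 10, with no BxPC3 library at 1 FPKM, and of the 1 higher in BxPC3. FN1, which encodes fibronectin, averaged 16.9 ± 1.02 FPKM (SD, n = 4) in PANC-1 and 0.609 ± 0.0567 in BxPC3. ENG, LOXL2, GNG11 and THY1 followed, with log2 differences of -3.23, -2.96, -2.87 and -2.62, and TNC, which encodes tenascin C, had no read in BxPC3. N-cadherin was an exception among the classical markers. CDH2 measured 1.7, 1.86, 1.95 and 2.05 FPKM in BxPC3 and 2.34, 2.09, 2.27 and 2.11 FPKM in PANC-1, and its log2 difference of -0.15 ± 0.05 (SE, limma adjusted p = 0.017) became 0.05 with joint scaling. Smooth muscle actin, ACTA2, was the member higher in BxPC3, at 2.4 ± 0.3 FPKM (SD, n = 4) against 0.445 ± 0.0552.

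Some host transcripts of the microRNAs that act in this programme also differed between the lines. Poly-A libraries hold the hosts and not the mature microRNAs, whose levels were not measured. MIR205HG measured 66, 65.8, 64 and 62.5 FPKM in BxPC3 and had no read in PANC-1, at least 7471-fold higher. MIR200CHG, host of miR-200c and miR-141, had 4.8, 3.21, 6.05 and 5.51 FPKM in BxPC3 and no read in PANC-1. MIR31HG had no read in BxPC3 and averaged 3.63 ± 0.678 FPKM (SD, n = 4) in PANC-1. It lies at chr9:21455642-21559669, within a stretch of chromosome 9 described below that was nearly silent in BxPC3. MIR100HG, host of miR-100 and miR-125b, averaged 1.17 ± 0.0624 FPKM (SD, n = 4) in PANC-1 and 0.0139 ± 0.00699 in BxPC3. Of 16 hosts listed, 9 passed the filter, and VMP1, MIR22HG, MIR210HG, MIR503HG and MIR4435-2HG differed by less than 1. The 4 that differed by at least 1, 2 in each direction, had no library of the other line at 1 FPKM. Their direction was thus set by the filter, and the levels are a description. The mature sequences that lie within the 4 hosts, from RefSeq with the seed (bases 2 to 8) in capitals, show that miR-200c and miR-141 of the shared host have seeds of their own, and that all 6 seeds are different.
miR-205-5p: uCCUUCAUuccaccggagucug
miR-200c-3p: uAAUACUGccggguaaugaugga
miR-141-3p: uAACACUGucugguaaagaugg
miR-31-5p: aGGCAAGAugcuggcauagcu
miR-100-5p: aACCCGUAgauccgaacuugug
miR-125b-5p: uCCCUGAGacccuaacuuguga

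Keratins formed one of the widest gaps. Of 14 tested keratins, 11 were higher in BxPC3 by at least 1 and 0 in PANC-1. The filter set the direction of 9 of the 14, which had no PANC-1 library at 1 FPKM. All 21 listed, tested or not, summed to 4958 to 5611 FPKM per BxPC3 library and 349 to 378 FPKM per PANC-1 library. KRT5, the keratin of basal layers, measured 760, 761, 766 and 770 FPKM in BxPC3 and had no read in PANC-1, at least 107849-fold higher. KRT17 averaged 952 ± 63.1 FPKM (SD, n = 4) against 0.0545 ± 0.0323, and KRT13 averaged 367 ± 20.7 with no read in PANC-1. KRT19 and KRT7, keratins of ducts, were not alike in PANC-1. KRT19 stayed well expressed there, at 93.4 ± 6.4 FPKM (SD, n = 4) beside 1841 ± 152 in BxPC3, while KRT7 was at 0.53 ± 0.157 beside 455 ± 28. The simple epithelial pair KRT8 and KRT18 differed least among the keratins higher in BxPC3, by 1.33 and 0.94 on the log2 scale. KRT80 and KRT10 were slightly higher in PANC-1, by 0.31 and 0.25, and with joint scaling neither passed the test and KRT10 changed sign.

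Genes that define squamous epithelium and the basal-like class of pancreatic tumours were higher in BxPC3. Of 17 tested genes of the cornified envelope and squamous differentiation, 16 were higher in BxPC3 by at least 1, and of 21 tested basal-like genes 20 were. These counts were largely set by the filter, since 16 of the 17 and 17 of the 21 had no PANC-1 library at 1 FPKM, and the levels are therefore given as a description. CTSV was the basal-like gene that did not pass, with 2.23 ± 0.388 FPKM (SD, n = 4) in BxPC3 and 2.42 ± 0.0792 in PANC-1. SPRR1A, a small proline-rich envelope protein, measured 152, 173, 151 and 160 FPKM in BxPC3, and SPRR1B, SPRR2A, SPRR2D and SPRR3 averaged 26.8, 12.4, 6.43 and 12.6 FPKM. None of these 5 genes had a read in PANC-1. S100A2, a marker of this class, averaged 302 ± 36.7 FPKM (SD, n = 4) against 1.1 ± 0.163. Members of the SPRR2 family, KRT6A and the pair SERPINB3 and SERPINB4 have near-identical copies, so the share of reads given to each is uncertain.

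Genes of the classical, glandular tumour class were also higher in BxPC3. Of 24 listed, 10 passed the filter, and 9 of these were higher in BxPC3 by at least 1 and 0 in PANC-1. CEACAM6 averaged 467 ± 4.26 FPKM (SD, n = 4) against 0.178 ± 0.0569, and the trefoil peptide TFF1 averaged 18.9 ± 3.01 against 0.128 ± 0.0679. ANXA10, of the gastric epithelium, had 20.7, 21.7, 19.4 and 20.9 FPKM in BxPC3 and no read in PANC-1. Of the 10 tested, 8 had no PANC-1 library at 1 FPKM and could only be higher in BxPC3, so the count says little by itself. Summed over all 24 members, tested or not, the classical list came to 741 to 795 FPKM per BxPC3 library and 39.2 to 43.2 per PANC-1 library, and the basal-like list to 2268 to 2554 and 16.8 to 19.1. All 5 mucins tested of 13 listed were higher in BxPC3, led by MUC1 with 44.4 ± 1.13 FPKM (SD, n = 4) against 3.82 ± 0.21. Of these 5, 4 had no PANC-1 library at 1 FPKM and could only be higher in BxPC3.

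Among S100 genes, 10 of 14 tested were higher in BxPC3 by at least 1, and 1 in PANC-1, S100PBP, which encodes a binding partner of S100P and is no S100 protein. Among the 10, 5 had no PANC-1 library at 1 FPKM. S100A9 measured 741, 874, 721 and 780 FPKM in BxPC3, where replicate 2 was the highest, and had 1 read in PANC-1. S100P averaged 312 ± 27.5 FPKM (SD, n = 4) against 0.331 ± 0.11. S100A4, linked to mesenchymal cells, was higher in PANC-1, at 79.6 ± 2.91 FPKM (SD, n = 4) against 41.9 ± 3.83. Among chemokines, 8 of 13 tested were higher in BxPC3 by at least 1 and 2 in PANC-1. The direction of 5 of the 8 and of both 2 was set by the filter, with no library of the other line at 1 FPKM. The neutrophil attractants CXCL1 and CXCL8 averaged 154 ± 11 and 23.2 ± 1.44 FPKM (SD, n = 4) in BxPC3 beside 3.98 ± 0.707 and 1.85 ± 0.139 in PANC-1. The monocyte attractant CCL2 was the reverse, with 59.8, 58.6, 59.8 and 66.8 FPKM in PANC-1 and at most 0.072 FPKM in BxPC3. CX3CL1 was the other chemokine higher in PANC-1. Cytokines and their receptors were divided, with 10 of 20 tested higher in BxPC3 by at least 1 and 5 in PANC-1. Here 6 of the 10 had no PANC-1 library at 1 FPKM and could only be higher in BxPC3. Of the interleukin 1 genes, IL1A averaged 24 ± 0.594 FPKM (SD, n = 4) in BxPC3 and had 4 reads in PANC-1, and the antagonist IL1RN averaged 19.2 ± 0.441 with no read in PANC-1. The macrophage growth factor CSF1 was higher in PANC-1, at 50.2 ± 1.3 FPKM (SD, n = 4) against 17.5 ± 0.313, as was the cytokine LIF, at 20.5 ± 0.461 against 8.42 ± 0.227.

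The genes of the plasminogen and clotting system differed in both directions. F3, which encodes tissue factor, measured 164, 171, 167 and 166 FPKM in BxPC3 and 0.56, 0.39, 0.562 and 0.663 FPKM in PANC-1. The plasminogen activator PLAT averaged 67 ± 1.33 FPKM (SD, n = 4) in BxPC3 against 0.193 ± 0.0269. Of the 11 genes in this list, 7 were higher in BxPC3 by at least 1 and 3 in PANC-1. Among the 7, 5 had no PANC-1 library at 1 FPKM and could only be higher in BxPC3.

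The matrix genes of the lines were different in kind. Of 19 tested collagen genes, 9 were higher in BxPC3 by at least 1 and 7 in PANC-1. For 6 of the 9 and 3 of the 7 no library of the other line reached 1 FPKM, so the filter set their direction. COL17A1, the transmembrane collagen of hemidesmosomes, averaged 66.9 ± 4.54 FPKM (SD, n = 4) in BxPC3 and 0.0276 ± 0.0155 in PANC-1. COL18A1, a basement membrane collagen, averaged 255 ± 14.2 FPKM (SD, n = 4) in PANC-1 and 4.24 ± 0.328 in BxPC3. The laminin chains divided in the same manner, with 5 of 10 tested higher in BxPC3 and 4 in PANC-1. The same limit held for 2 of these 5 and 3 of these 4. The chains LAMA3 and LAMB3 of epithelial laminin were higher in BxPC3, LAMB3 at 149 ± 1.52 FPKM (SD, n = 4) against 0.361 ± 0.0881. LAMB2 measured 41.9, 47.3, 42.2 and 41.4 FPKM in PANC-1 and at most 0.0313 FPKM in BxPC3. Among matrix metalloproteases and their inhibitors, 7 of 13 were higher in BxPC3 and 4 in PANC-1. The filter set the direction of 3 of these 7 and of all 4. MMP28, MMP14 and the inhibitor TIMP3 were higher in BxPC3, with log2 differences of 7.01, 3.78 and 5.44, while MMP2 and MMP17 were higher in PANC-1, with -7.12 and -3.20.

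**Figure D3:**
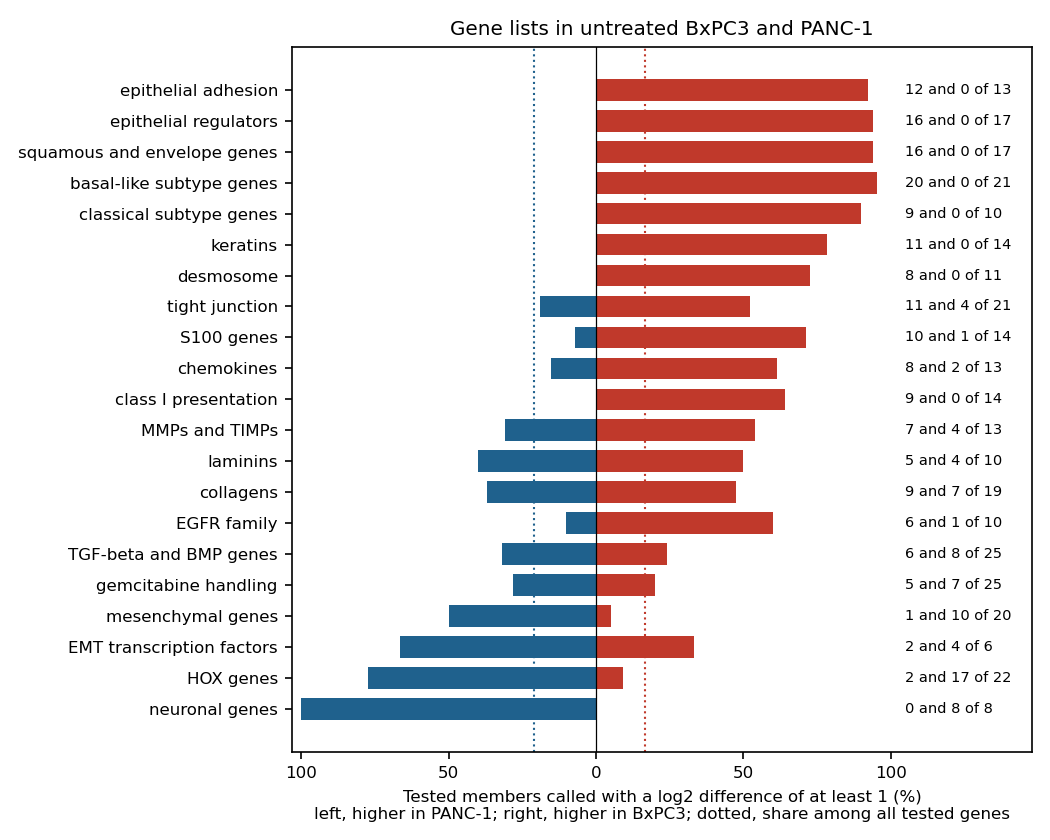
Share of the tested members of each gene list that passed the test with a log2 difference of at least 1, to the right for genes higher in untreated BxPC3 and to the left for genes higher in untreated PANC-1, with the counts printed at the right edge. Dotted lines give the shares among all 13270 tested genes, 16.8% and 20.9%. Epithelial and squamous lists reach far to the right, and HOX and neuronal lists far to the left. The bars include genes that passed the filter through 1 line alone, whose direction was set by the filter.

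Transcription factors of the pancreas and endoderm separated the lines without a common direction. Of 30 listed, 10 passed the filter, 6 higher in BxPC3 by at least 1 and 3 in PANC-1. For 5 of the 6 and 1 of the 3 no library of the other line reached 1 FPKM, so the filter set their direction. GATA6, a factor of the classical tumour class, measured 35.4, 34.6, 35.8 and 34.7 FPKM in BxPC3 and 0.876, 0.872, 0.98 and 0.874 FPKM in PANC-1, a 39-fold difference (limma log2 difference 4.25 ± 0.04 (SE), adjusted p = 2.1e-15). FOXA1 averaged 49.3 ± 2.35 FPKM (SD, n = 4) against 0.419 ± 0.0551, and SOX2 averaged 28.4 ± 1.15 against 0.799 ± 0.0452. Their relatives were higher in PANC-1. GATA4 averaged 15.2 ± 0.389 FPKM (SD, n = 4) in PANC-1 and 0.0413 ± 0.0393 in BxPC3, and FOXA2 averaged 26.1 ± 1.22 against 7.02 ± 0.433. SOX9, the factor of the ductal lineage, measured 88.8, 94, 88.6 and 85.3 FPKM in PANC-1 and 2.32, 2.65, 2.64 and 2.83 FPKM in BxPC3, a 34.1-fold difference. PDX1, HNF4A, NKX6-1, NR5A2 and ONECUT1 were below the filter, with at most 0.357 FPKM in any library for PDX1, and PTF1A and NKX2-2 had 0 reads.

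HOX genes, which set position along the body axis, were higher in PANC-1 with 2 exceptions. Of 22 tested, 17 were higher in PANC-1 by at least 1 and 2 in BxPC3, and the HOXB and HOXC clusters made up most of the list. HOXB9 measured 95.2, 98.4, 98.8 and 94.1 FPKM in PANC-1 and 1.43, 2.03, 1.75 and 1.65 FPKM in BxPC3, a 56.4-fold difference. HOXB8, HOXB4, HOXC10 and HOXC13 followed, with log2 differences of -5.20, -4.04, -3.63 and -3.31. The 2 higher in BxPC3 came from the HOXA cluster. HOXA10 averaged 8.8 ± 0.498 FPKM (SD, n = 4) against 0.106 ± 0.041, and HOXA3 averaged 19.9 ± 0.734 against 3.92 ± 0.271. No HOXD gene passed the filter.

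Genes of neurons and neuroendocrine cells were higher in PANC-1 in all 8 tested of 24 listed, each by at least 1. L1CAM measured 73.3, 79.8, 73.1 and 70.6 FPKM in PANC-1 and at most 0.0971 FPKM in BxPC3. The intermediate filament gene NES, the granule gene CHGB, the microtubule gene MAP2 and the vesicle genes SYP and SYT1 had log2 differences of -3.84, -3.37, -3.36, -2.71 and -2.51. The other 16 genes, CHGA and INSM1 among them, did not pass the filter, so this list describes a few expressed members and no full neuroendocrine profile. Of the 8 tested genes, 6 had no BxPC3 library at 1 FPKM and so passed the filter through PANC-1 alone.

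Of the EGF receptor family and its ligands, 6 of 10 tested were higher in BxPC3 by at least 1 and 1 in PANC-1. The receptor EGFR itself did not pass, at 27.1, 20.3, 26.6 and 25.6 FPKM in BxPC3 and 28.9, 28.3, 27.8 and 26.1 FPKM in PANC-1 (limma log2 difference -0.16 ± 0.08 (SE), adjusted p = 0.084), where replicate 2 of BxPC3 was the lowest library. Its partners were higher in BxPC3, ERBB3 at 18.3 ± 1.2 FPKM (SD, n = 4) against 0.397 ± 0.056 and ERBB2 at 24.2 ± 0.189 against 10.7 ± 0.676. The ligands AREG, TGFA, HBEGF and BTC were higher in BxPC3 by 2.74, 2.78, 2.03 and 1.42. The neuregulin NRG2 was the member higher in PANC-1, with 4.7 ± 0.346 FPKM (SD, n = 4) against 0.167 ± 0.0519. MET, the receptor of hepatocyte growth factor, was 2.41-fold higher in BxPC3.

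Receptor kinases outside that family also differed in both directions. Of 23 tested, 9 were higher in BxPC3 by at least 1 and 6 in PANC-1. For 3 of the 9 and 5 of the 6 the filter set the direction, as no library of the other line reached 1 FPKM. Among the fibroblast growth factor receptors, FGFR3 measured 126, 123, 127 and 126 FPKM in BxPC3 and 1.14, 1.13, 1.32 and 1.06 FPKM in PANC-1, a 108-fold difference, and FGFR2 averaged 14.5 ± 0.678 FPKM (SD, n = 4) against 0.0481 ± 0.0261. The other 2 members of that receptor family were higher in PANC-1, FGFR1 at 4.89 ± 0.187 FPKM (SD, n = 4) against 0.161 ± 0.0256 and FGFR4 at 1.69 ± 0.212 against 0.0704 ± 0.00357. The 4 receptors thus formed 2 pairs of opposite direction. No library of one line overlapped the other, as was so for 86.7% of all tested genes. EPHA1 and the collagen receptor DDR1 were higher in BxPC3, with log2 differences of 4.44 and 2.62. The phagocytic receptor MERTK and the neurotrophic receptor RET were higher in PANC-1, with -2.30 and -1.95.

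Wnt pathway genes differed in both directions, with 9 of 25 tested higher in BxPC3 by at least 1 and 6 in PANC-1, and with a median of -0.20 that was 0.05 with joint scaling. No library of the other line reached 1 FPKM for 5 of the 9 and 3 of the 6, so the filter set their direction. The ligands led on the side of BxPC3. WNT10A measured 92.9, 97.5, 91.8 and 91.4 FPKM there and 0.115, 0.199, 0.399 and 0.202 FPKM in PANC-1, a 408-fold difference. WNT4, WNT7A and WNT7B were higher in BxPC3 by 3.61, 3.13 and 3.12. The secreted inhibitors stood on the side of PANC-1. Besides DKK3, SFRP1 averaged 9.91 ± 0.269 FPKM (SD, n = 4) in PANC-1 and had 2 reads in BxPC3, and DKK1 averaged 32.4 ± 0.98 against 10.4 ± 0.416. Targets and partners of the growth regulator YAP were likewise divided, 5 of 20 higher in BxPC3 by at least 1 and 6 in PANC-1. CTGF and WWTR1, which encodes the YAP relative TAZ, were higher in PANC-1 with log2 differences of -6.70 and -3.13, and AJUBA was higher in BxPC3 with 2.97.

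Integrins, the receptors of cells for matrix, were divided between the lines. Of 14 tested, 6 were higher in BxPC3 by at least 1 and 4 in PANC-1. The direction of 4 of the 6 and 2 of the 4 was set by the filter, with no library of the other line at 1 FPKM. ITGB6, an epithelial chain, averaged 9.12 ± 0.487 FPKM (SD, n = 4) in BxPC3 and had 1 read in PANC-1, and the laminin receptor chain ITGA3 averaged 151 ± 6.13 against 48.8 ± 3.05. The vitronectin receptor chains ITGB5 and ITGB3 were higher in PANC-1, at 85.4 ± 3.15 and 3.73 ± 0.249 FPKM (SD, n = 4) against 17.7 ± 0.292 and 0.683 ± 0.0793.

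In the TGF-beta and BMP pathway, 6 of 25 tested genes were higher in BxPC3 by at least 1 and 8 in PANC-1, with a median of -0.09 that turned to 0.19 with joint scaling. The counts turned as well, to 8 in BxPC3 and 5 in PANC-1 of 24 tested with joint scaling. The ligands TGFB1 and BMP2 were higher in BxPC3, TGFB1 at 97.4 ± 4.72 FPKM (SD, n = 4) against 33.2 ± 1.61 and BMP2 at 16.4 ± 1.01 against 0.538 ± 0.139. The activin subunit INHBB was higher in PANC-1, at 8.39 ± 0.517 FPKM (SD, n = 4) against 0.0109 ± 0.0104. Among receptors, BMPR1A and BMPR2 were higher in PANC-1 by 1.40 and 1.52, and BMPR1B was higher in BxPC3 by 1.81. The signal transducer SMAD4, shared by both branches, had 0, 0, 0 and 0 FPKM in BxPC3 and 3.64, 3.97, 3.72 and 4.04 FPKM in PANC-1, at least 2227-fold higher. SMAD3 averaged 75 ± 1.35 FPKM (SD, n = 4) in PANC-1 and 33.7 ± 2.02 in BxPC3, while the inhibitor SMAD6 was 3.38-fold higher in BxPC3. The target ID1 averaged 440 ± 51.8 FPKM (SD, n = 4) in BxPC3 and 21.7 ± 1.5 in PANC-1, and its relative ID3 was the reverse, at 13.5 ± 0.783 in PANC-1 and 2.2 ± 0.359 in BxPC3.

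Among genes often altered in pancreatic carcinoma, 3 of 27 tested were higher in BxPC3 by at least 1 and 3 in PANC-1, shares of 11.1% each that lie below the background. SMARCA4, a chromatin remodelling ATPase, measured 7.3, 6.85, 7.38 and 7.42 FPKM in BxPC3 and 0.998, 1.13, 0.911 and 1.12 FPKM in PANC-1. The cell cycle inhibitor CDKN1A was 4.6-fold higher in BxPC3, at 53.6 ± 0.888 FPKM (SD, n = 4).

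Genes that take up and process gemcitabine were divided between the lines, with 5 of 25 tested higher in BxPC3 by at least 1 and 7 in PANC-1. Beside the background shares of 16.8% and 20.9% these counts do not stand out, and the list median of -0.22 became 0.02 with joint scaling. The main importer SLC29A1, known as ENT1, measured 60.9, 65.4, 62.2 and 60.9 FPKM in PANC-1 and 3.67, 3.57, 3.46 and 3.49 FPKM in BxPC3, a 17.6-fold difference (limma log2 difference -3.80 ± 0.04 (SE), adjusted p = 5.2e-15). The concentrative importer SLC28A3 had no read in PANC-1 and averaged 1.16 ± 0.117 FPKM (SD, n = 4) in BxPC3. The kinase that makes the first phosphate step, DCK, averaged 11.4 ± 0.982 FPKM (SD, n = 4) in PANC-1 and 5.24 ± 0.457 in BxPC3. CDA, the deaminase that inactivates the drug, had 10.4, 11.3, 10.8 and 11.5 FPKM in BxPC3 and 5 reads over the 4 PANC-1 libraries. The libraries of the lines did not overlap for any of these 4 genes, as was so for 86.7% of all tested genes. The nucleotidase NT5C2 was 5.9-fold higher in PANC-1, and the efflux pumps ABCC1, ABCC4 and ABCG2 were higher there by 1.84, 2.87 and 1.12. Of the ribonucleotide reductase subunits, the drug's targets, RRM1 was 1.5-fold higher in PANC-1 and RRM2B 3.95-fold, while RRM2 measured 2.82 ± 0.172 FPKM (SD, n = 4) in PANC-1 and 2.27 ± 0.26 in BxPC3, a difference of -0.22 that was -0.02 with joint scaling. The thymidine kinases TK1 and TK2 were 4.2-fold and 2.57-fold higher in BxPC3.

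Class I antigen presentation was higher in BxPC3 in 9 of 14 tested genes by at least 1, and in 0 in PANC-1. B2M, the invariant light chain, measured 330, 389, 328 and 329 FPKM in BxPC3 and 66.8, 65.2, 66.6 and 70.7 FPKM in PANC-1. The immunoproteasome subunits PSMB8, PSMB9 and PSMB10 were higher by 2.17, 1.81 and 3.63, and HLA-C by 1.80, though reads of the HLA genes may be shared among copies. TAP2 did not pass the test. Among cancer and testis antigens, 6 of 10 tested were higher in BxPC3 by at least 1 and 3 in PANC-1. The filter set the direction of all 6 and of 2 of the 3, which had no library of the other line at 1 FPKM. The X-linked MAGEA3 averaged 111 ± 8.82 FPKM (SD, n = 4) in BxPC3 and 0.242 ± 0.156 in PANC-1, with reads that may be shared with its close copy MAGEA6. PRAME was the reverse, with 56.3, 58.9, 57.8 and 58 FPKM in PANC-1 and 5 reads in BxPC3.

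Interferon-stimulated genes were higher in BxPC3 in 14 of 37 tested by at least 1 and in PANC-1 in 4. For 6 of the 14 and 3 of the 4 no library of the other line reached 1 FPKM, so the filter set their direction. BST2, the membrane tether of viruses, measured 152, 190, 154 and 161 FPKM in BxPC3 and 1.02, 1.29, 0.912 and 0.689 FPKM in PANC-1, a 168-fold difference. IFI27, OAS1, OAS2 and IFI44 followed with log2 differences of 3.56, 2.41, 2.38 and 2.32. In the other direction, the regulator IRF7 averaged 9.39 ± 0.303 FPKM (SD, n = 4) in PANC-1 and 0.0947 ± 0.0196 in BxPC3, and IFIT1 averaged 3.97 ± 0.0964 against 0.603 ± 0.0989. The sensors of nucleic acids were not uniform. The DNA sensors IFI16 and AIM2 were higher in BxPC3, IFI16 at 28 ± 1.4 FPKM (SD, n = 4) against 0.486 ± 0.0418, and AIM2 at 3.56 ± 0.153 with no read in PANC-1. The adaptor STING, TMEM173, was 5.49-fold higher in BxPC3, whereas the enzyme upstream of it, CGAS, was 3.01-fold higher in PANC-1. The RNA sensor RIG-I, DDX58, was 4.67-fold higher in PANC-1.

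Complement genes were higher in BxPC3 in 7 of 13 tested by at least 1 and in PANC-1 in 1. Among the 7, 5 had no PANC-1 library at 1 FPKM, and the 1 had no BxPC3 library there. The filter thus set their direction. C3, the central component, measured 91.7, 81.6, 92.4 and 92.8 FPKM in BxPC3, where replicate 2 was the lowest, and 0.434, 0.418, 0.429 and 0.336 FPKM in PANC-1. The proteases C1R and C1S had log2 differences of 4.63 and 4.13. SERPING1, the inhibitor of C1R and C1S, was the member higher in PANC-1, at 1.65 ± 0.128 FPKM (SD, n = 4) against 0.269 ± 0.0521, and with joint scaling its difference of -1.06 was -0.94.

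Antioxidant and detoxifying genes were divided between the lines. Of 30 tested targets of NRF2 and the aryl hydrocarbon receptor, 12 were higher in BxPC3 by at least 1 and 4 in PANC-1, with a median of 0.01. For 8 of the 12 and 1 of the 4 the filter set the direction, as no library of the other line reached 1 FPKM. HMOX1, which encodes heme oxygenase, measured 139, 141, 146 and 141 FPKM in PANC-1 and 1.98, 2.19, 1.88 and 1.93 FPKM in BxPC3, a 71.1-fold difference. TXNRD1, thioredoxin reductase, averaged 111 ± 1.18 FPKM (SD, n = 4) in PANC-1 and 10.6 ± 0.13 in BxPC3. The glutathione peroxidase GPX2 and the aldehyde dehydrogenases ALDH3A1 and ALDH1A1 were higher in BxPC3, by 6.12, 6.15 and 4.34. The reductases AKR1B10, AKR1C1 and AKR1C3 were higher there too, by 4.28, 4.08 and 4.89, and the AKR1C genes are near-identical, so the share of reads given to each is uncertain. The metallothionein MT1A averaged 34.1 ± 2.46 FPKM (SD, n = 4) in PANC-1 and had 9 reads in BxPC3, and MT2A was 2.51-fold higher in PANC-1.

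Of 30 tested genes of glycolysis and the hypoxia response, 12 were higher in BxPC3 by at least 1 and 2 in PANC-1, with a median of 0.51. SLC2A1, the glucose transporter GLUT1, measured 145, 133, 145 and 145 FPKM in BxPC3 and 9.38, 11.1, 10.2 and 9.4 FPKM in PANC-1, a 14.1-fold difference. The hexokinase HK2, the growth factor VEGFA and the carbonic anhydrase CA9 were higher in BxPC3 by 2.40, 1.66 and 1.73. BNIP3, a mitophagy receptor that hypoxia induces, averaged 14.8 ± 0.67 FPKM (SD, n = 4) in PANC-1 and 0.271 ± 0.0206 in BxPC3, and the neuronal enolase ENO2 was 4.07-fold higher in PANC-1. Nuclear genes of oxidative phosphorylation differed little on the deposited scale, with 1 of 31 tested higher in BxPC3 by at least 1, COX8A, and 0 in PANC-1. With joint scaling the counts were 6 and 0, and the median went from 0.14 to 0.43.

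Cell death genes of the BCL2 and caspase families were higher in BxPC3 in 10 of 28 tested by at least 1 and in PANC-1 in 1. The death-promoting BIK measured 18, 19.3, 15.8 and 17.1 FPKM in BxPC3 and 0.165, 0.21, 0.0446 and 0.255 FPKM in PANC-1. The inflammatory caspase CASP1 and the death effectors BAK1 and BBC3, known as PUMA, had log2 differences of 3.42, 1.76 and 1.60. The death inhibitor BCL2A1 was the one higher in PANC-1, at 6.07 ± 0.453 FPKM (SD, n = 4) against 0.182 ± 0.0864.

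Proliferation genes differed less. Of 32 tested genes of G2 and mitosis, 7 were higher in BxPC3 by at least 1 and 2 in PANC-1, TPX2 and BUB1, and of 32 genes of the G1/S step and replication 5 and 2 were. CCNA2, cyclin A2, averaged 11.1 ± 0.126 FPKM (SD, n = 4) in BxPC3 and 3.34 ± 0.249 in PANC-1. The spindle factor TPX2 averaged 56.5 ± 1.12 FPKM (SD, n = 4) in PANC-1 and 21.8 ± 1.21 in BxPC3. Ribosomal protein genes, 50 tested, had a median difference of 0.57 beside -0.22 for all tested genes, and 9 were higher in BxPC3 by at least 1 and 2 in PANC-1, RPS16 and RPL26. With joint scaling these counts were 17 and 2, and the median was 0.86. On the deposited scale RPS19, RPL13 and RPL18 differed most in favour of BxPC3, by 2.27, 2.06 and 2.01. RPS19 measured 590, 717, 577 and 597 FPKM in BxPC3, so replicate 2, which stands apart on the second component, was the highest, and 121, 132, 129 and 129 FPKM in PANC-1.

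Some of the most abundant genes did not pass the test on the deposited scale. ACTG1, a cytoplasmic actin, averaged 1087 ± 46.6 FPKM (SD, n = 4) in BxPC3 and 1098 ± 44.6 in PANC-1. The ribosomal genes RPS12 and RPS18 and the mitochondrial MT-ND1 had log2 differences of -0.10, 0.05 and 0.04, and none of these 4 genes passed the test. With joint scaling the 4 differences were 0.28, 0.19, 0.34 and 0.33, so their small size belongs to the deposited scale. Of the 13 mitochondrially encoded genes, 7 were higher in BxPC3 by at least 1, led by MT-CYB with a log2 difference of 1.44.

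Long non-coding genes included some that were present in one line alone. RHOXF1-AS1 averaged 24.8 ± 2.26 FPKM (SD, n = 4) in BxPC3 with no read in PANC-1, and LINC01503 averaged 39.3 ± 1.79 against 0.26 ± 0.0653. LINC00839 had no read in BxPC3 and averaged 11.9 ± 0.83 FPKM (SD, n = 4) in PANC-1. For antisense genes the deposited tables do not say whether strand was used in counting, so reads may come from the partner gene. Genes that overlap others in the annotation can also lose reads, and a low value for such a gene is uncertain.

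Genes silent in one line were next read in order along the chromosomes (GRCh38). Of the protein-coding genes, 98 had no read in PANC-1 with at least 1 FPKM in all 4 BxPC3 libraries, and 51 were the reverse. Runs of at least 2 neighbouring protein-coding genes that all had at most 3 reads over the 4 libraries of a line, with a gene expressed in the other line, numbered 43 in BxPC3 and 90 in PANC-1, and most held a single expressed gene. Runs with at least 2 expressed genes numbered 6 for BxPC3 silence and 13 for PANC-1 silence. These counts are not corrected for depth, which was greater in BxPC3, so a low gene met the read limits more readily in PANC-1. Many genes of these 13 runs were not expressed in BxPC3 either, expressed meaning at least 1 FPKM in all 4 libraries. The epidermal differentiation complex (chr1:152409243-153460701) had 13 expressed of 47 genes, and the type II keratins (chr12:52446651-52849092) had 3 of 16. The SERPINB cluster (chr18:63476761-63936111) had 6 of 9, and the WFDC cluster with SLPI and PI3 (chr20:45109452-45254564) had 2 of 6. The kallikreins KLK11 to KLK13 (chr19:51022216-51065114) had 2 of 3. The run of UGT1A genes (chr2:233617645-233833423), whose reads are shared among overlapping transcripts, had 3 of 10.

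Of the 6 runs silent in BxPC3, those of chromosomes 18, 21 and 10 held most reads in PANC-1. On chromosome 18 (chr18:50560078-51218304) the 7 protein-coding genes from MAPK4 to MEX3C had 4 reads in all in BxPC3 and 17643 in PANC-1. ME2, ELAC1, SMAD4 and MEX3C had 0 reads in BxPC3 and averaged 3.64, 1.78, 3.84 and 8.31 FPKM in PANC-1. The flanking gene SKA1 was present in both lines, at 2 ± 0.313 FPKM (SD, n = 4) in BxPC3 and 2.02 ± 0.145 in PANC-1. On chromosome 21 (chr21:41464551-42143453) TMPRSS2, RIPK4, PRDM15, C2CD2 and ZBTB21 had 0 reads in BxPC3, RIPK4 with 16.8 ± 0.833 FPKM (SD, n = 4) in PANC-1, while MX2 before the run and TFF3 after it were present in both lines. On chromosome 10 (chr10:71396934-71851375) CDH23, C10orf105, VSIR and PSAP had 1 read in BxPC3 and 614599 in PANC-1. The next genes CHST3, SPOCK2 and ASCC1 had 21, 42 and 42 reads in BxPC3, ANAPC16 had 0 beside 31.1 ± 1.52 FPKM (SD, n = 4) in PANC-1, and DDIT4 beyond it was at 142 FPKM in BxPC3 and 93.6 in PANC-1. CHST3, SPOCK2, ASCC1, DDIT4, MX2 and SKA1 were chosen for mention after their values were seen.

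On the short arm of chromosome 9 (chr9:21077105-24545946) 24 protein-coding genes had 6 reads together in BxPC3 and 3486 in PANC-1. Only 1 of the 24, KLHL9, reached 1 FPKM in all 4 PANC-1 libraries. KLHL9 had 5.73, 5.66, 5.26 and 5.01 FPKM in PANC-1 and no read in BxPC3, and DMRTA1 averaged 0.772 ± 0.104 FPKM (SD, n = 4) against none. The microRNA host MIR31HG, also without a read in BxPC3, lies in this stretch as well. In the middle of this stretch CDKN2A and CDKN2B, inhibitors of the cell cycle kinases, had 0 reads in all 8 libraries, and MTAP had 0 reads in BxPC3 and 3 in PANC-1. In these 4 stretches no gene of any type had over 3 reads in BxPC3 except 2 on chromosome 9. In the gemcitabine libraries of BxPC3 the protein-coding genes of the chromosome 18, 21, 10 and 9 stretches had 1, 0, 1 and 6 reads. As background, loss of SMAD4 and of the CDKN2A locus is frequent in pancreatic carcinoma. These RNA counts do not measure DNA, and copy number was not tested.

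**Figure D4:**
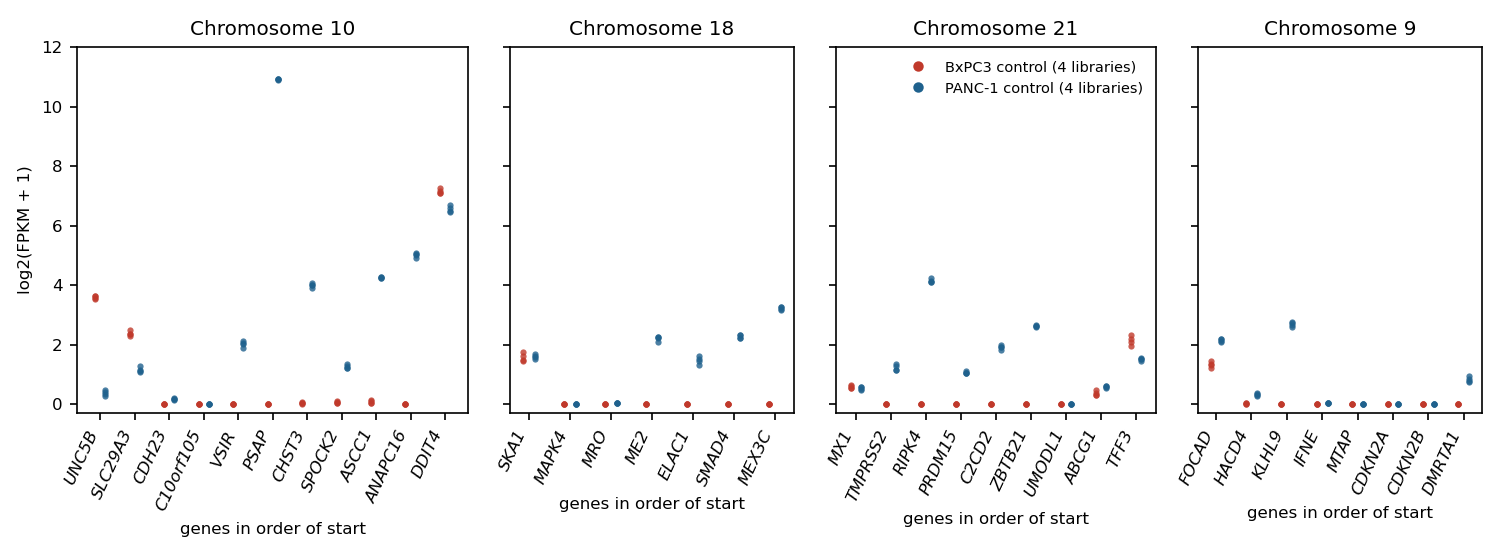
Levels of neighbouring genes in each control library, as log2(FPKM + 1), on chromosomes 10, 18, 21 and 9, in order of gene start, with BxPC3 in red and PANC-1 in blue. BxPC3 points lie at or near 0 through the inner genes of each panel, such as PSAP, SMAD4 and RIPK4, and rise above 0 again at flanking genes such as DDIT4 and SKA1, while CDKN2A and CDKN2B lie at 0 in both lines.

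Differences also ran along neighbouring tested genes, some of them without a read in 1 line, such as IL1RN in PANC-1. Runs of at least 4 neighbouring tested genes that differed by at least 2 in one direction numbered 15, of which 10 were higher in BxPC3 and 5 in PANC-1. Those of BxPC3 were largely gene families, such as CXCL1, CXCL5, CXCL3 and CXCL2 on chromosome 4, and IL1A, IL1B and IL1RN on chromosome 2. Of the 5 of PANC-1, 2 were HOX clusters and 3 lay together on chromosome 19. The stretch of chromosome 19 from FBXO17 to AKT2 (chr19:38941401-40285536, 1344 kb) held 39 protein-coding genes, of which 27 were tested. All 27 had a higher level in PANC-1 on the deposited scale, 26 of them by at least 1 and 23 by at least 2, with a median of -2.68, against 0.25 for the other 838 genes tested on this chromosome. With joint scaling the median was -2.40. The ends of the stretch were set after the values were seen, so the counts describe it and test nothing.

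Within this stretch the genes have unlike roles. AKT2, a kinase of the insulin and growth factor pathway, measured 96.6, 102, 96.3 and 91.7 FPKM in PANC-1 and 16.4, 15.2, 15.8 and 16.1 FPKM in BxPC3, a 6.09-fold difference. FBL, the methyltransferase of nucleolar RNA, averaged 919 ± 25.7 FPKM (SD, n = 4) against 101 ± 8.2. PAF1, of a complex that accompanies RNA polymerase, averaged 300 ± 11.2 FPKM (SD, n = 4) against 35.9 ± 0.711, and the ribosomal gene RPS16 averaged 2999 ± 110 against 578 ± 58.7. The Notch ligand DLL3 had 61.7, 64.3, 66.6 and 63.5 FPKM in PANC-1 and 5 reads in BxPC3. PAK4 was the gene that differed by less than 1, at -0.22, and with joint scaling it was at 0.06. Together the protein-coding genes of the stretch took 2.25% to 2.38% of reads in PANC-1 and 0.328% to 0.348% in BxPC3. The stretch had a sharp border on one side only. After AKT2, C19orf47 and PLD3 were higher in BxPC3 by 0.31 and 0.75, and the window of 25 tested genes that starts beyond them (chr19:40447765-42081549) had a median of 1.32, with 16 higher in BxPC3 by at least 1 and 0 in PANC-1. Before FBXO17, NFKBIB and MRPS12 were still higher in PANC-1, with log2 differences of -1.50 and -1.02. The window of 25 genes at chr19:36334453-38292614, wholly before the stretch, had a median of -0.91, with 11 higher in PANC-1 by at least 1 and 1 in BxPC3. These 4 genes and PAK4 were likewise picked after their values were seen. As background, amplification of the AKT2 region has been described in PANC-1, and whether copy number goes with these levels was not tested.

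**Figure D5:**
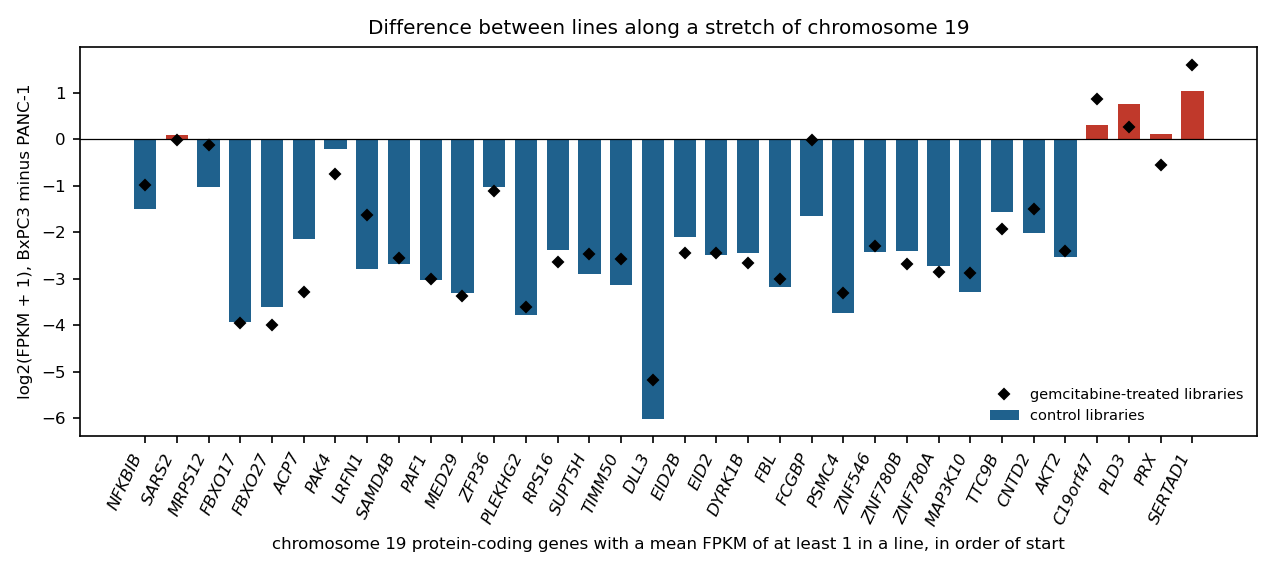
Difference between the lines, log2(FPKM + 1), BxPC3 minus PANC-1, for protein-coding genes of chromosome 19 with a mean of at least 1 FPKM in a line, in order of start, as bars for the control libraries and diamonds for the gemcitabine libraries. All bars from FBXO17 to AKT2 point down, DLL3 the furthest at -6.00, the bars from C19orf47 on point up, and of the genes before FBXO17, NFKBIB and MRPS12 also point down.

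Whole chromosomes shifted less. The median difference of tested protein-coding genes was highest on chromosome 20, at 0.51, and next on chromosome 19, at 0.23, and lowest on chromosome 2, at -0.73, followed by chromosome 5 at -0.66, chromosome 10 at -0.60 and chromosome X at -0.55. With joint scaling chromosome 20 stood at 0.76 and chromosome 2 at -0.50, and the order of the 2 was the same. On chromosome 2, 34.4% of genes were higher in PANC-1 by at least 1 and 10.1% in BxPC3, and on chromosome 20 the shares were 10.8% and 31.0%.

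The line difference was largely seen again in the gemcitabine libraries, which share no library with the controls. Of the 5002 genes that differed by at least 1, 4937 had the same direction between the treated lines, and 3499 (70.0%) had it with a size of at least 1. For CDH1 the difference was 5.44 between controls and 5.89 between treated lines, for VIM -7.49 and -5.95, for GATA6 4.25 and 3.79, and for SLC29A1 -3.80 and -2.79. Some genes did not keep their size. FN1 had -3.47 between controls and 0.36 between treated lines, and SPP1, which encodes osteopontin, had 5.57 and 0.01. KRT15 had 2.82 and 0.07, and whether these differences themselves differ was not tested here.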

How the data were processed

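Per the labels' protocols, RNA came from a PureLink kit and the libraries were enriched for poly-A RNA. The submitters' processing notes name CASAVA, HISAT2 and the mouse build mm10, without versions, while all 58735 identifiers, positions and exon lengths match the human annotation GENCODE 29 (GRCh38). For the counter, strand use and multiply mapped reads, the method is not given in the sources used here. The authors deposited FPKM values per gene and library, 1 table per line, with a gene length in bases per the file headers. FPKM times gene length gave whole reads, within 0.02 of a read, for 100% of values in every library, and these read numbers show that each table had been scaled by median-ratio factors of its own. Read numbers were used for depth, floors of 3 reads and 1 alternative. Intervals and floors cover counting error only.

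Differences are BxPC3 minus PANC-1 on log2(FPKM + 1), so those of low genes are understated. The fit over the 8 control libraries used R 4.3.3 and limma 3.58.1 (trended, robust empirical Bayes), with Benjamini-Hochberg adjustment over 13270 genes. The fit was tested on simulated data of the 13270 genes for this comparison. It recovered 86% of genes given a 1.5-fold change and 98% of those given a 2-fold change, and called 9 of 13070 unchanged genes. The simulated lines shared the same means but for 200 genes, with equal spread, no shift between tables and no library apart. The real lines are unlike this, so it does not show how many of the real calls are false. No 2 libraries of a group were alike within sampling noise (lowest chi-square per degree of freedom 2.07). Equal replicate numbers did not pair the libraries. Alternatives were other pseudocounts, filters, scalings and tests, protein-coding genes only, all 16 libraries, a replicate block and each library left out.

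Genes are named by rule: the 15 largest differences in each direction, 5 long non-coding genes in each, up to 6 members per list with members of opposite direction, set genes and lists, genes in runs, genes with no read in 1 line and the 4 highest genes alike in both. Values are printed for those the results turn on, and a few of the genes so named are not reported here. The members and lists were chosen with earlier results of these data known. The 177 symbols that occur more than once, chromosome Y and XIST were left out. Tables and figures were made with Python 3.11.15, pandas 2.3.3, numpy 2.4.6 and matplotlib 3.10.9.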

Additional observations from a re-analysis of the deposited data

Results flagged for a closer look

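Among the genes described, 407 groups of 4 control libraries with a mean of at least 1 FPKM were examined, and in 40 (9.83%) the highest or lowest library stood far from the other 3. Chance flags about 1 in 20 groups. Replicate 2 of BxPC3 was that library in 29 of the 40, and it is also the library apart on the second principal component.

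In BxPC3, replicate 2 was the highest for KRT19 (2068 FPKM), KRT17 (1046), KRT7 (496), KRT13 (398), UPK3B (668), EPCAM (59.9), MMP14 (340), MRPS12 (58), B2M (389), CXCL1 (170), ID1 (518), MAGEA3 (124), WNT4 (15), COX8A (340), RPL13 (681), RPS12 (1143), RPS19 (717) and RRM1 (14.2). It was the lowest for ABCC1 (17.4 FPKM), C3 (81.6), DSP (31.9), FOXC1 (26), ITGA3 (142), LAMA3 (8.17), MET (61.9), MIR4435-2HG (1.73), SLC2A1 (133), SMAD3 (30.7) and WNT7B (35.8). Replicate 1 of BxPC3 was the lowest for ID3, at 1.67 FPKM. In PANC-1, replicate 2 was the highest for DKK3 (147 FPKM), EEF1A2 (78.6), LAMB2 (47.3), MMP14 (23.3), PRDM15 (1.18) and TIMP3 (1.35). Replicate 4 of PANC-1 was the highest for CCL2 (66.8 FPKM), NES (31.5) and RRM2 (3.07), and replicate 3 was the lowest for ESRP2, at 2.19 FPKM.

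For 4 genes all libraries of one line lay above the other among controls and below it among the gemcitabine libraries. The difference between treated lines was 0.36 for FN1, 0.72 for DKK1, -0.21 for ITGA3 and -0.62 for DDIT4, and between controls it was -3.47, -1.55, 1.61 and 0.59. Whether these differences themselves differ was not tested.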

How the results depend on the processing

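The 253 genes described that differed by at least 1 kept their direction and their call under all 19 alternatives in which they were tested. Of the 272 called genes among the 282 tested ones, 3 changed direction. CDH2 was at 0.047 with median-ratio scaling, 0.071 when centred on the median difference and 0.077 with limma-voom on recovered reads. KRT10 was at 0.023 with median-ratio scaling and 0.022 with limma-voom. PAK4 was at 0.064, 0.00051 and 0.066 in the same 3 settings. A call was lost in at least 1 setting by 7 genes and gained by 10. CDH2 lost its call without replicate 1 of BxPC3, at -0.12, and without replicate 1 of PANC-1, at -0.13. The counts moved by over 1.5 times in 2 cases: without a filter 7376 genes were called higher in BxPC3 beside 4861, as more genes were tested, and with TPM 5523 genes were higher in PANC-1 by at least 1 beside 2768. Leaving out each library in turn gave 4798 to 4885 genes higher in BxPC3 and 6970 to 7137 in PANC-1, and with a size of at least 1 gave 2199 to 2264 and 2761 to 2793. With the replicate block the counts were 4844, 7030, 2235 and 2768, and same-numbered libraries had correlations of 0.04, -0.06, 0.01 and -0.12, so the numbers are no pairs. Of 52 list medians, 6 changed sign with median-ratio scaling, and the median of the endoderm factors went from 1.90 to -0.0060 without a filter, which adds genes at the floor. Line and table cannot be told apart in any setting. Depth limits genes near 3 reads per group.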
